A study of Homo sapiens with 6 samples.

Results

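Collagen chain genes encode the polypeptides that assemble by threes into collagen molecules, and 43 of the 18417 human genes measured here belong to them. They were chosen by symbol alone, as COL followed by a number, A and a number, with the probe set of the highest mean over the 6 arrays standing for each gene. The arrays held total RNA of IMR90, human lung fibroblasts labelled as primary cells. Cells of 3 samples had been stimulated with recombinant human oncostatin M at 10 ng/mL, and cells of 3 control samples were untreated. All samples were of this 1 line, so the values hold for it alone, and the labels do not say whether replicates were separate cultures. P-values therefore cover no more than the differences among these samples, which could be technical. The labels give no length of treatment.

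Collagens are built on a repeat with glycine at regular steps, which lets chains wind into a rope-like helix. Fibrillar collagens (types I, II, III, V, XI, XXIV and XXVII) form the banded fibrils of tissue, and network collagens (types IV, VIII and X) form sheets such as that of basement membranes. FACITs are fibril-associated collagens with interrupted helices that sit on the surface of fibrils. The remaining chains include those of type VI beaded filaments, the type VII anchoring fibrils and collagens that span the cell membrane. Lung fibroblasts are a main source of type I and type III collagen, and oncostatin M, a relative of interleukin-6, signals through JAK kinases and STAT factors. The members comprised 11 fibrillar, 9 network, 10 FACIT and 13 other genes, and COL17A1 was not analysed here.

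After oncostatin M none of the 43 collagen genes differed from control at an adjusted p under 0.05 (limma), where 1.72% of all genes were higher, 1.7% were lower and 3.42% passed in either direction. At an unadjusted p under 0.05 the count was 1 of 43 (COL14A1, 2.33%), against 11.6% of all genes. The groups did not overlap for 2 collagen genes (4.65%), COL24A1 and COL8A1, against 18.0% of all genes. Changes, which are log2 differences of means (oncostatin M minus control), ran from -0.18 for COL7A1 to 0.31 for COL14A1, with 22 above 0 and 21 below. Their median was 0.0012, beside 0.00057 over all genes, and the median absolute change was 0.0758, beside 0.0736.

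How large a change these arrays leave room for was read from the 95% intervals of the fit. For all 43 genes the interval lay within a 2-fold change in either direction, against 98.7% of all genes tested. For 41 (95.3%) it lay within 1.5-fold, against 93.9% of all genes tested. Both shares are near those of all genes, so they are nothing particular to collagens. COL3A1 and COL14A1 were the members whose intervals reached past 1.5-fold, both upwards, to 1.57-fold and 1.51-fold. Among all genes tested, the smallest absolute change called was 0.31. Of the 43 genes, 13 had means within the range of 409 olfactory receptor and keratin-associated protein genes, taken as silent in fibroblasts (up to their 95th percentile, 6.77 after oncostatin M and 6.74 in control). The other 30 lay above that range in both groups, and none of these 30 was called. For 29 of these 30 the interval lay within 1.5-fold. When only genes above the silent range were fitted, 347 genes were called higher and 401 lower. In that fit 16.9% of genes had an unadjusted p under 0.05 (limma), while none of the 30 collagen genes did or was called.

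**Figure D1:**
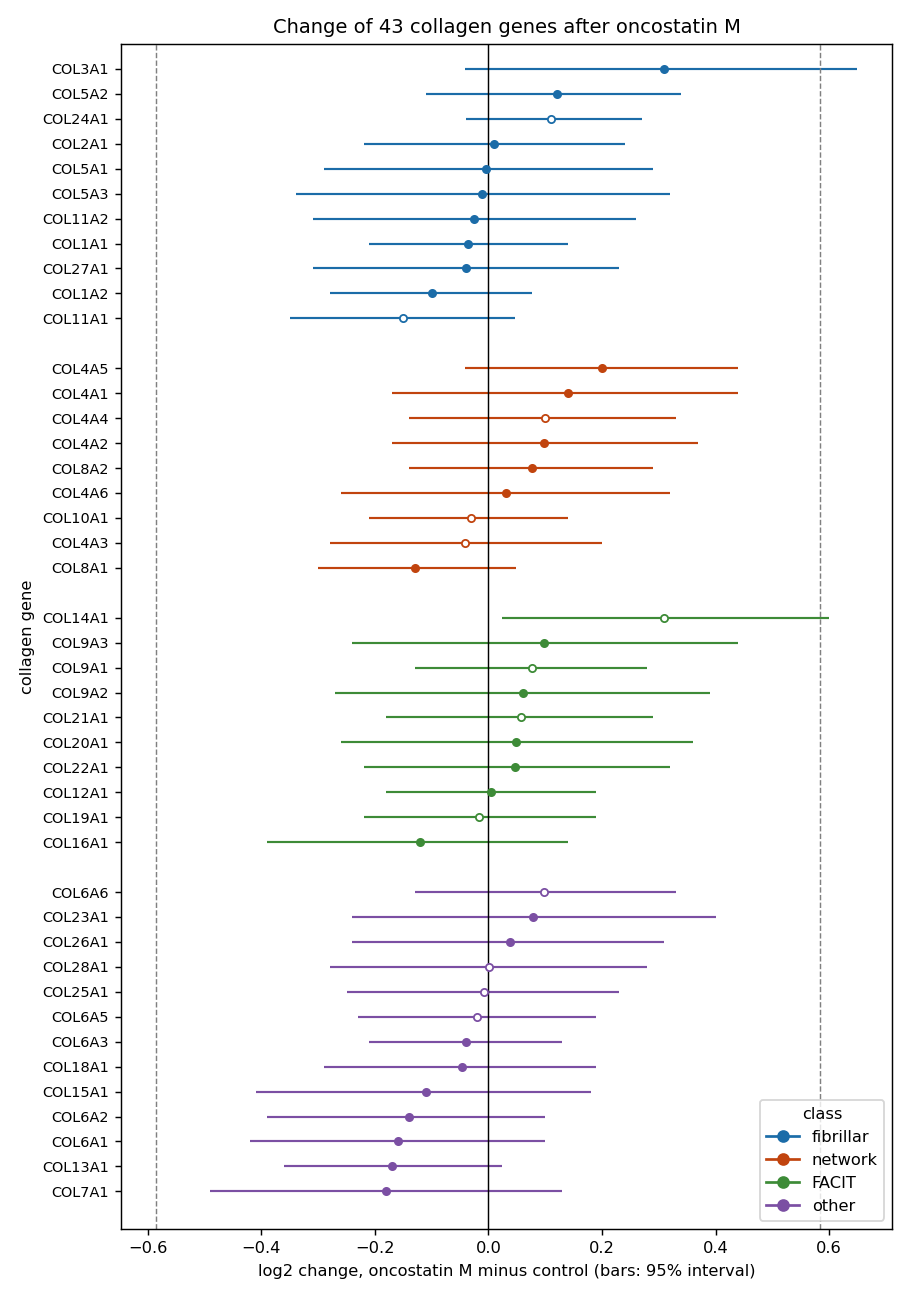
Change of each of 43 collagen genes (oncostatin M minus control, log2, horizontal axis) with its 95% interval, grouped by class and coloured by it. Open points mark the 13 genes whose means lay within the range of silent genes, and dashed lines mark 1.5-fold. COL3A1 (0.31) and COL14A1 (0.31) reach past the upper dashed line.

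Among fibrillar collagens, none of 11 genes passed (4 above 0, 7 below, median -0.011). COL1A1, the main chain of type I collagen, had 13.27, 13.20 and 13.08 (log2 level) on oncostatin M arrays 1, 2 and 3, against 13.25, 13.26 and 13.16 on control arrays 1, 2 and 3. Its groups overlapped and its change was -0.036 (SE 0.078, adjusted p = 0.968), with an interval from 0.862-fold to 1.104-fold. COL1A2, its partner chain in type I collagen, had 12.86, 12.80 and 12.68 after oncostatin M, against 12.90, 12.92 and 12.83 in control. The change of COL1A2 was -0.10 (SE 0.077, adjusted p = 0.796), and its interval ran from 0.825-fold to 1.05-fold. Both type I chains were lowest on the array of replicate 3 in either group.

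COL3A1, the single chain of type III collagen, which shares fibrils with type I, was the fibrillar gene with the highest change. It had 11.46, 11.29 and 10.93 after oncostatin M, against 11.06, 11.02 and 10.68 in control. Oncostatin M arrays 1 and 2 stood above every control array, while array 3 lay within the control range. The change was 0.31 (SE 0.15, adjusted p = 0.537), 1.24-fold with an interval from 0.971-fold to 1.57-fold. The change was 0.19 without oncostatin M 1 (adjusted p = 0.633) and 0.19 without control 3 (adjusted p = 0.965), and over the 6 fits that left out 1 array it lay between 0.19 and 0.45.

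Type V collagen, which sits inside type I fibrils and limits their width, gave near-equal means. COL5A1 had 9.44, 9.29 and 9.03 after oncostatin M, against 9.30, 9.40 and 9.06 in control, a change of -0.0036 (SE 0.13, adjusted p = 0.997). For COL5A2 the levels were 9.80, 9.79 and 9.51 after oncostatin M, against 9.64, 9.63 and 9.48 in control, a change of 0.12 (SE 0.098, adjusted p = 0.825). The groups of both chains overlapped. COL24A1 had 6.01, 6.05 and 5.96 after oncostatin M, against 5.87, 5.89 and 5.92 in control, without overlap but within the range of silent genes (change 0.11, adjusted p = 0.657). COL11A1, a chain of type XI collagen, lay in that range too, at 6.71, 6.58 and 6.43 after oncostatin M, against 6.76, 6.73 and 6.70 in control (change -0.15, adjusted p = 0.639). The other 4 fibrillar genes (COL2A1, COL5A3, COL11A2 and COL27A1) had changes between -0.039 (COL27A1) and 0.010 (COL2A1). COL11A2 was the only collagen gene with several probe sets, and its other pair, which held identical values, gave -0.17 in place of -0.026.

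**Figure D2:**
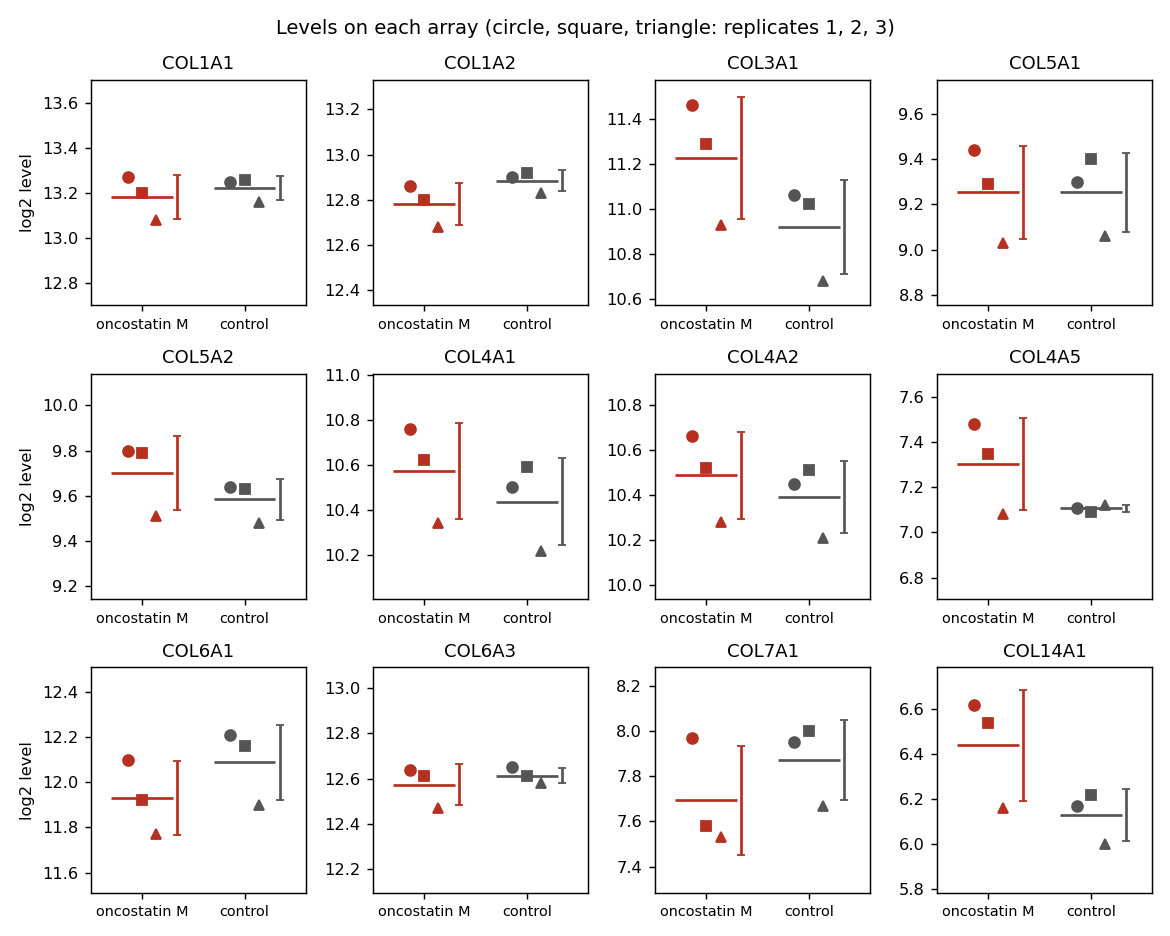
Log2 level of 12 collagen genes on each array, oncostatin M in red on the left and control in grey on the right of each panel, with the mean (line) and SD (bar, n = 3). Each vertical axis spans 1 log2 unit. The triangle, replicate 3, is the lowest oncostatin M point in all 12 panels and the lowest control point in 11 of them, COL4A5 being the exception.

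Network collagens gave 6 changes above 0 and 3 below, with none of 9 past the threshold and a median of 0.076. Type IV collagen, the sheet-forming collagen of basement membranes, is encoded by 6 genes arranged head to head in pairs, so that both members of a pair are read outwards from 1 stretch of DNA. In the promoter windows taken from RefSeq (GRCh38.p14, 250 bases before to 50 after the start), the windows of COL4A1 and COL4A2 share 226 bases, those of COL4A3 and COL4A4 share 82 and those of COL4A5 and COL4A6 share 121. The windows of COL4A1, COL4A2, COL4A3 and COL4A5 are given below, and those of COL4A4 and COL4A6 are not printed. Capitals mark the bases shared with the partner's window on the opposite strand.
COL4A1 (chr13:110307108-110307407, minus strand): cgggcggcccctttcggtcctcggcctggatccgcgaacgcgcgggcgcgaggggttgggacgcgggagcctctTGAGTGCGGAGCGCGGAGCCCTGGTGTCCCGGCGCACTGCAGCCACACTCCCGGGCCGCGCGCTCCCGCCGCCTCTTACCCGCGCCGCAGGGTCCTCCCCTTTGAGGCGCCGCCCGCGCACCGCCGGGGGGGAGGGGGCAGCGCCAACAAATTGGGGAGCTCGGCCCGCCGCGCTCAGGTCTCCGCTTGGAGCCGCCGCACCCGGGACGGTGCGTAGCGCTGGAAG
COL4A2 (chr13:110307034-110307333, plus strand): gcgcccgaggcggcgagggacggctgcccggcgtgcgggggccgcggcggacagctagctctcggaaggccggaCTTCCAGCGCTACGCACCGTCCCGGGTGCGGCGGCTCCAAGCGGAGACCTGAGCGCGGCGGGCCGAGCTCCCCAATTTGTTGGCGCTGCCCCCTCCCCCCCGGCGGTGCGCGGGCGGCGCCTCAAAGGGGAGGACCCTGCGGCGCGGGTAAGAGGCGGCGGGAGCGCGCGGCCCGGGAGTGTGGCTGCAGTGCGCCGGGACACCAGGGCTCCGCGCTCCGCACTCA
COL4A3 (chr2:227164374-227164673, plus strand): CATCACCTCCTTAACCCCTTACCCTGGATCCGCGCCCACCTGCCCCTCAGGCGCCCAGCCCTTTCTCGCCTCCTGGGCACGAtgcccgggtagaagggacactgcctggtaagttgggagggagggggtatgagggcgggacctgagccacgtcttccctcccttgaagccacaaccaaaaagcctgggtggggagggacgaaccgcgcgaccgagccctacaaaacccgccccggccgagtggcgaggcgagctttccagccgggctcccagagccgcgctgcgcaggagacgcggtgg
COL4A5 (chrX:108439588-108439887, plus strand): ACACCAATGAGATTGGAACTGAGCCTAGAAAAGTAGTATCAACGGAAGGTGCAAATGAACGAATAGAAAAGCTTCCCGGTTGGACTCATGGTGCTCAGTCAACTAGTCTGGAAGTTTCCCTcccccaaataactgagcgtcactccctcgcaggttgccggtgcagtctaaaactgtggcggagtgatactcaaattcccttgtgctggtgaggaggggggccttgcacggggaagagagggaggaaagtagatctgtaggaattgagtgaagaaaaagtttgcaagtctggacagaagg

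COL4A1 and COL4A2, the chains of the common type IV molecule, kept the same order of arrays. COL4A1 had 10.76, 10.62 and 10.34 after oncostatin M, against 10.50, 10.59 and 10.22 in control. COL4A2 had 10.66, 10.52 and 10.28 after oncostatin M, against 10.45, 10.51 and 10.21 in control. In both genes array 1 was highest and array 3 lowest after oncostatin M, array 2 was highest and array 3 lowest in control, and the groups overlapped. Their changes were 0.14 (SE 0.13, adjusted p = 0.878) and 0.098 (SE 0.12, adjusted p = 0.922), both below 0 with array weights (-0.019 and -0.039). The order of arrays was not particular to this pair. Of 43 collagen genes, 39 were highest on array 1 and 32 lowest on array 3 after oncostatin M. In control, 29 were highest on array 2 and 36 lowest on array 3.

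COL4A5 had the highest change of the network class. Its levels were 7.48, 7.35 and 7.08 after oncostatin M, against 7.11, 7.09 and 7.12 in control, so that oncostatin M array 3 lay just below the control arrays and the other 2 above them. The change was 0.20 (SE 0.11, adjusted p = 0.577), and between 0.11 (without oncostatin M 1) and 0.31 (without oncostatin M 3, adjusted p = 0.164) when 1 array was left out. COL4A6, which shares the COL4A5 promoter region, differed by 0.031 (adjusted p = 0.985), and the pair COL4A3 and COL4A4 gave -0.042 and 0.099, both within the range of silent genes. COL8A1, a short-chain collagen of vessel walls and of the eye, had 6.85, 7.03 and 6.96 after oncostatin M, against 7.03, 7.06 and 7.12 in control. Its groups did not overlap, by less than the 2 decimals given, and its change was -0.13 (SE 0.076, adjusted p = 0.674). COL8A2 and COL10A1 differed by 0.076 and -0.031, and COL10A1 was within the range of silent genes.

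FACIT collagens gave 8 changes above 0 and 2 below, with a median of 0.054 and none of 10 past the threshold. Without oncostatin M 1 that median was -0.078. COL14A1, which binds the surface of fibrils, had 6.62, 6.54 and 6.16 after oncostatin M, against 6.17, 6.22 and 6.0 in control. As with COL3A1, arrays 1 and 2 stood above all controls and array 3 did not. The change was 0.31 (SE 0.13, adjusted p = 0.369), the lowest adjusted p of the 43 genes, and between 0.22 (without oncostatin M 1) and 0.45 (without oncostatin M 3, adjusted p = 0.0719) when 1 array was left out. Both means of COL14A1 lay within the range of silent genes. COL12A1, another collagen of fibril surfaces, had 12.82, 12.86 and 12.69 after oncostatin M, against 12.88, 12.76 and 12.72 in control (change 0.0037, SE 0.080, adjusted p = 0.996). COL16A1 had 8.10, 7.76 and 7.77 after oncostatin M, against 8.04, 8.12 and 7.85 in control (change -0.12, adjusted p = 0.863). The other 7 FACIT genes lay between -0.016 (COL19A1) and 0.097 (COL9A3), and COL19A1, COL9A1 and COL21A1 were within the range of silent genes.

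Among the other collagens 9 changes lay below 0 and 4 above, with a median of -0.040 and none of 13 past the threshold. Type VI collagen forms beaded filaments around cells. COL6A1 had 12.10, 11.92 and 11.77 after oncostatin M, against 12.21, 12.16 and 11.90 in control. COL6A2 had 11.27, 11.04 and 10.96 after oncostatin M, against 11.26, 11.36 and 11.07 in control. The groups of these 2 genes overlapped, and the changes were -0.16 (SE 0.11, adjusted p = 0.767) and -0.14 (SE 0.11, adjusted p = 0.791). COL6A3, the largest chain of the type VI molecule, had 12.64, 12.61 and 12.47 after oncostatin M, against 12.65, 12.61 and 12.58 in control, a change of -0.040 (SE 0.075, adjusted p = 0.963) with an interval from 0.863-fold to 1.096-fold. COL6A5 and COL6A6 lay within the range of silent genes, with changes of -0.021 and 0.098.

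COL7A1, which anchors epithelium to the tissue beneath, had the lowest change of all 43 genes. Its levels were 7.97, 7.58 and 7.53 after oncostatin M, against 7.95, 8.0 and 7.67 in control. Oncostatin M array 1 lay within the control range and arrays 2 and 3 below it. The change was -0.18 (SE 0.14, adjusted p = 0.796), 0.884-fold with an interval from 0.711-fold to 1.098-fold, and between -0.32 (without oncostatin M 1, adjusted p = 0.176) and -0.097 (without oncostatin M 3) when 1 array was left out. The COL7A1 promoter window held the motif TTCNNNGAA, the core bound by STAT factors, at 2 places, starting 162 and 152 bases before the start (GRCh38.p14). Capitals mark the matches.
COL7A1 (chr3:48595463-48595501, minus strand): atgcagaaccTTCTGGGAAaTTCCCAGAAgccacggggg
Windows were found for 31 of the 43 genes, 43 windows in all, and not for COL1A1, COL1A2, COL2A1, COL3A1, COL5A2, COL6A1, COL6A5, COL8A1, COL9A3, COL14A1, COL20A1 and COL22A1. Among the genes with a window, COL7A1 and COL11A2 were the genes with this motif (2 of 43 windows, 4.65%), against 7.66% of 35116 windows of all genes. The motif reads the same on both strands. CCAAT on either strand stood in 30.2% of the collagen windows and in 34.6% of all windows, GGGCGG in 55.8% and 45%, and TATAAA in 16.3% and 11.5%. CCAAT and GGGCGG both fall within the stretch that COL4A1 and COL4A2 share. A match is a description of the letters and not evidence of binding.

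COL13A1, a collagen that spans the cell membrane, had 7.72, 7.62 and 7.53 after oncostatin M, against 7.90, 7.79 and 7.70 in control. The groups overlapped by 1 array, and the change was -0.17 (SE 0.084, adjusted p = 0.541). COL15A1 and COL18A1 are close relatives found at basement membranes, and a fragment of the COL18A1 product is known as endostatin. COL15A1 had 9.32, 9.33 and 8.96 after oncostatin M, against 9.40, 9.44 and 9.11 in control (change -0.11, adjusted p = 0.907). COL18A1 had 8.93, 8.67 and 8.68 after oncostatin M, against 8.87, 8.90 and 8.65 in control (change -0.046, adjusted p = 0.969). The remaining 4 genes, COL23A1, COL25A1, COL26A1 and COL28A1, lay between -0.0076 and 0.078, and COL25A1 and COL28A1 were within the range of silent genes.

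The collagen genes varied together from array to array within each group. On oncostatin M array 1, 39 of 43 collagen genes had the highest level of their group (90.7%), against 43.7% of all genes, and on array 3, 32 had the lowest (74.4%), against 25.8%. On control array 3, 36 of 43 were lowest (83.7%), against 34.9% of all genes, and on control array 2, 29 were highest (67.4%), against 43.6%. The median deviation of the collagen genes from their group's mean was 0.18, -0.029 and -0.11 on oncostatin M arrays 1, 2 and 3, and 0.032, 0.089 and -0.10 on control arrays 1, 2 and 3, while over all genes it stayed between -0.017 and 0.020. All 4 classes showed array 1 above the mean of oncostatin M, by 0.15 (network) to 0.21 (FACIT). The pattern was not confined to genes above the range of silent genes. Of the 13 genes within that range, COL24A1 alone was not highest on oncostatin M array 1. COL28A1, for example, had 5.77, 5.35 and 5.42 on oncostatin M arrays 1, 2 and 3. Over all genes, array 1 deviated most from its group's mean (root mean square 0.1685, other arrays 0.08434 to 0.1155). On it 41.6% of all genes were lowest. Genes measured on 1 array are not independent. The deviations were summarised after the values were seen, and what sets them was not tested.

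**Figure D3:**
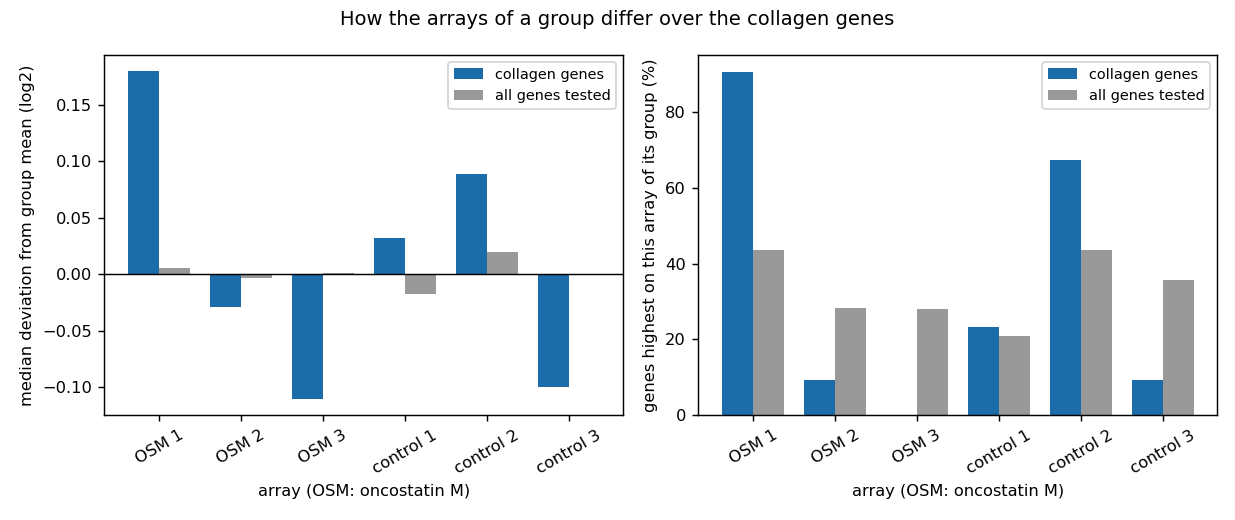
Left, median deviation from the group mean (log2) on each array, over 43 collagen genes (blue) and all genes tested (grey). Right, percent of genes with the highest level of their group on that array. Collagen genes deviate by 0.18 on oncostatin M array 1 and by -0.11 on array 3, while all genes together stay near 0.

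The balance of the list moved with single arrays. Without oncostatin M 1, 33 of 43 changes lay below 0 and the median was -0.081 (all genes -0.014), and 7 genes had an unadjusted p under 0.05 (14.3% of all genes did), with none past the adjusted threshold. With array weights, which gave that array 0.226 where the other 5 had between 0.723 and 3.225, again 33 lay below 0, 8 had an unadjusted p under 0.05 (19.1% of all genes) and the lowest adjusted p was 0.0574 for COL13A1. Without oncostatin M 3, by contrast, 32 lay above 0 and the median was 0.056. The sign of the median thus differed between these fits.

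Chains were also set against each other within an array, which takes out only what both chains share. Brightness differs between probe sets, so the differences below have no meaning as ratios of RNA, and they are read only between arrays. COL3A1 minus COL1A1 was -1.81, -1.91 and -2.15 after oncostatin M, against -2.19, -2.24 and -2.47 in control. The groups did not overlap, and the mean difference was 0.34 (SE 0.13) higher after oncostatin M. Array 3 was again the lowest of either group, as it was for most collagen genes. COL1A2 minus COL1A1 was -0.41, -0.40 and -0.40 after oncostatin M, against -0.35, -0.34 and -0.33 in control. These groups did not overlap either, although the shift was only -0.065 (SE 0.0058). In an exact permutation test over the arrays (two-sided, n = 3 against 3) both gave p = 0.10, the smallest that 20 splits allow, and 0.24 when adjusted over the 6 pairs compared. Type V (COL5A2 minus COL5A1, 0.12), type IV (COL4A2 minus COL4A1, -0.04) and type VI (COL6A2 and COL6A3 minus COL6A1, 0.02 and 0.12) had overlapping groups and exact p from 0.20 to 0.90 (0.24 to 0.90 adjusted). The pairs were chosen after the values were seen. With 20 splits no pair could reach an exact p under 0.05, so this test cannot decide whether any pair differed.

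**Figure D4:**
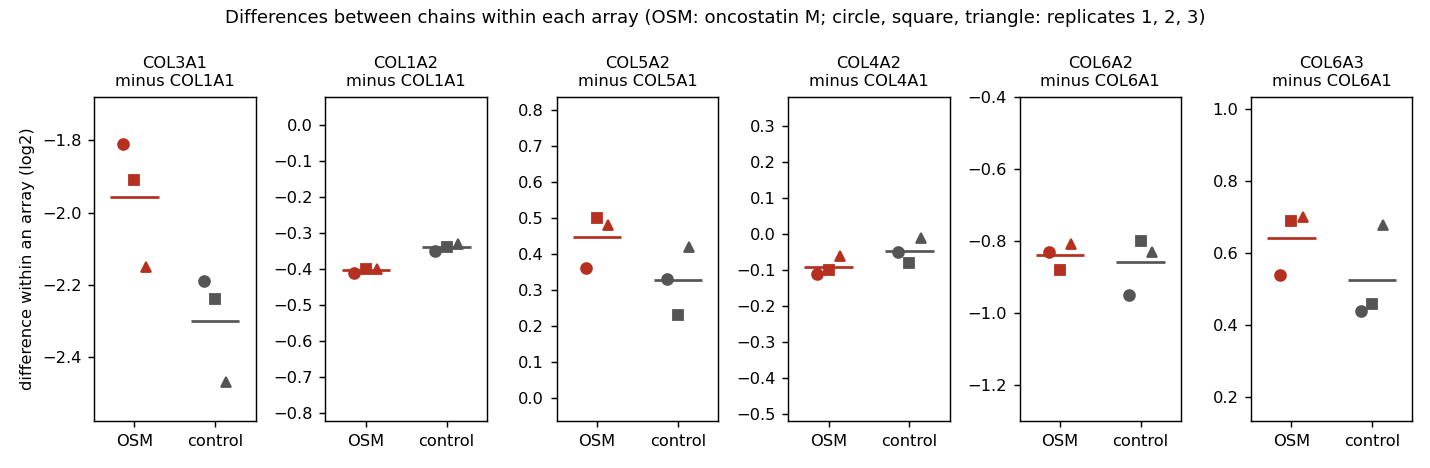
Difference in log2 value between 2 collagen chains on the same array, oncostatin M in red on the left and control in grey on the right of each panel, with the group mean as a line. Each vertical axis spans 0.9 log2 units. Groups do not overlap for COL3A1 minus COL1A1 and COL1A2 minus COL1A1 and overlap in the other 4 panels.

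The genes that make, trim, bind and break down collagen were read from lists chosen for their roles, beside 1.72% of all genes higher, 1.7% lower and a median of 0.00057. Of 22 genes of collagen modification, folding and secretion none passed, with changes from -0.35 to 0.29 and a lowest adjusted p of 0.0872 (median -0.077). Their groups did not overlap for 2 genes higher and 7 lower, where 18.0% of all genes did not overlap in either direction. Of 10 collagen receptors none passed either (median -0.015, lowest adjusted p 0.0935). Of 13 genes of procollagen processing and crosslinking, 1 was higher and 1 lower (median -0.087), where 3.42% of all genes passed in either direction. ADAMTS3, which removes the amino-terminal propeptide of procollagens, had 7.27, 7.46 and 7.57 after oncostatin M, against 6.65, 6.59 and 6.84 in control, and rose by 0.74 (SE 0.10, adjusted p = 0.00646), with its control mean within the range of silent genes. LOXL1, a lysyl oxidase that crosslinks matrix, had 10.74, 10.85 and 10.82 after oncostatin M, against 11.16, 11.24 and 11.20 in control (change -0.40, SE 0.069, adjusted p = 0.019).

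Of 12 genes of collagen degradation, 2 were lower and none higher (median -0.098), where 1.7% of all genes were lower. MMP14, a protease at the cell membrane that cuts fibrillar collagen, had 10.24, 10.26 and 10.24 after oncostatin M, against 10.58, 10.74 and 10.60 in control, and fell by 0.39 (SE 0.073, adjusted p = 0.0246). TIMP3, an inhibitor of such proteases, had 11.12, 11.07 and 11.17 after oncostatin M, against 11.82, 11.84 and 11.75 in control, and fell by 0.68 (SE 0.069, adjusted p = 0.00154). The groups of both were far apart beside their spread. Of 11 fibril-associated proteins 1 was higher (median -0.052), where 1.72% of all genes were: LUM, or lumican, which regulates fibril width, had 10.68, 10.99 and 10.46 after oncostatin M, against 10.09, 9.82 and 9.96 in control (change 0.75, SE 0.14, adjusted p = 0.0222).

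Of 20 genes named as regulators of collagen genes, 1 was higher and 1 lower (median -0.020), where 1.72% and 1.7% of all genes were. At an unadjusted p under 0.05 (limma) the counts were 5 of 22 for modification, 3 of 10 for receptors and 6 of 13 for processing. They were 4 of 12 for degradation, 2 of 11 for fibril-associated proteins and 9 of 20 for regulators, against 11.6% of all genes. CEBPB, a transcription factor, had 9.70, 9.81 and 9.81 after oncostatin M, against 9.23, 9.23 and 9.29 in control, and rose by 0.52 (SE 0.069, adjusted p = 0.0052). SOX9, the factor that drives COL2A1 and COL11A2 in cartilage, had 8.62, 8.30 and 8.45 after oncostatin M, against 8.99, 9.09 and 9.0 in control, and fell by 0.57 (SE 0.093, adjusted p = 0.0136). COL2A1 itself, the chain of cartilage type II collagen, differed by 0.010 and COL11A2 by -0.026, or by -0.17 on its other pair of probe sets. Calls were kept in all 6 fits that left out 1 array for TIMP3 and CEBPB, and were lost in 5 for LOXL1 and MMP14 (highest adjusted p 0.0944 and 0.103, both without control 2), in 3 for LUM (0.109 without control 2) and SOX9 (0.0784 without control 1) and in 1 for ADAMTS3 (0.0577 without control 1).

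The label of the cells was set against markers. Of 12 fibroblast markers, which include COL1A1, COL1A2 and COL3A1, 11 lay above the range of silent genes in both groups, as did 6 of 8 smooth muscle and pericyte markers, 2 of 8 epithelial, 2 of 6 endothelial, 1 of 5 leukocyte and 3 of 6 chondrocyte markers. The mean level of the smooth muscle and pericyte markers was 8.41 to 8.47 after oncostatin M and 8.66 to 8.70 in control, with 2 of 8 (RGS5 and CNN1) called lower and none higher, where 1.7% of all genes were lower and 1.72% higher. That of the fibroblast markers was 11.103 to 11.252 after oncostatin M and 11.002 to 11.054 in control, with 2 (LUM and PDGFRA) called higher and 1 (PDGFRB) lower. Of the epithelial markers KRT18 was called higher and of the chondrocyte markers SOX9 was called lower, while no endothelial or leukocyte marker was called. The called markers are named after their values were seen. The part of any of these lists in the collagen values was not tested. In bulk RNA, fewer cells of a kind and less RNA per cell cannot be told apart.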

How the data were processed

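RNA of 6 IMR90 samples was labelled with biotin by an Ambion kit and hybridised to Affymetrix arrays, per the labels' protocols. The authors deposited log2 values, 1 per probe set and array. The submitters' processing notes name RMA and, at version 1.1, Affymetrix Expression Console, with no settings. RMA evens out the arrays' distributions, so changes are relative to other genes, and it tends to shrink differences between dim probe sets. The labels name no genome build, and promoter coordinates are those of RefSeq on GRCh38.p14. Array medians lay between 6.5361 and 6.6634, correlations between arrays were 0.9893 to 0.9968, and no columns were identical.

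Of 33297 probe sets, 19460 had 1 gene symbol in the platform's table, 1754 several and 12083 none, and the probe set of highest mean stood for each of 18417 genes. Of 45 collagen probe sets 43 were so chosen, and 1 that names COL1A2 together with another gene was not used. Group means were compared across all genes with limma 3.58.1 in R 4.3.3 (eBayes, two-sided, Benjamini-Hochberg over all genes tested, threshold 0.05). The fit was run on simulated data too. Their noise was drawn independently for each gene and array, without the shared variation of genes on an array described above. Intervals are 95% intervals of that fit. The number of arrays limits the precision. Alternatives covered normalization, the rule for a gene's probe set, removal of dim genes, variance priors, array weights, a replicate block, thresholds and leaving out each array. Figures were drawn with matplotlib 3.10.9.

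Members and lists were chosen with earlier results of these data known. The text names every collagen gene past the threshold (none), the 15 of largest absolute change and 12 chains chosen by name, with the others given by range, and from each list of other genes up to 4 past the threshold.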

Additional observations from a re-analysis of the deposited data

How the results depend on the processing

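No collagen gene was called higher or lower at a threshold of 0.05 under any of 17 alternatives. None was called in the main fit at thresholds of 0.01 and 0.1, which were tried on that fit only. The lowest adjusted p over the alternatives was 0.0574 (COL13A1, array weights). COL11A1 (0.061), COL7A1 (0.065) and COL6A1 (0.0886) also lay under 0.1 with array weights, as did COL14A1 (0.0719) without oncostatin M 3. Whether replicate numbers pair the samples could not be told from these arrays. Deviations from the group means correlated at 0.06352, -0.4556 and 0.5114 for arrays with the same number. For arrays with different numbers they correlated between -0.6046 and 0.5432. Deviations within a group are not independent, so these correlations cannot decide. Collagen genes were mostly lowest on replicate 3, after oncostatin M (74.4%, all genes 25.8%) and in control (83.7%, all genes 34.9%). No collagen gene was called with replicate number as a block, where COL3A1 had an adjusted p of 0.146. With the block 255 and 223 of all genes were higher and lower. Over all genes, 316 were higher and 314 lower, against 209 and 152 when all probe sets were tested, 667 and 610 with array weights and 175 and 112 at a threshold of 0.01, and leaving out 1 array gave between 156 and 400 higher and between 105 and 332 lower. The median change of the network collagens (0.076) was 0.12 among genes above the median level, where fewer genes are counted. It was -0.039 with array weights and between 0.005 and 0.13 when 1 array was left out. The FACIT median (0.054) was -0.059 with array weights and between -0.078 and 0.11 when 1 array was left out. Leaving out 1 array gave fibrillar medians between -0.097 and 0.056 and medians of the other collagens between -0.13 and 0.0077. Of 349 values of 21 named collagen genes under alternatives, 16 changed sign, in 8 genes, none of them past the threshold. Changes of sign came with array weights for COL12A1 (-0.076), COL4A1 (-0.019) and COL4A2 (-0.039), with array medians subtracted for COL12A1 (-0.0067) and with quantile normalization for COL5A1 (0.021). When 1 array was left out the change ran from -0.03 to 0.055 for COL12A1, from -0.21 to 0.0077 for COL15A1, from -0.13 to 0.00034 for COL18A1, from -0.079 to 0.015 for COL1A1, from -0.099 to 0.11 for COL5A1 and from -0.075 to 0.012 for COL6A3, and the shift of COL6A2 minus COL6A1 ran from -0.029 to 0.045. The cause was not tested. With the block, calls were lost for LOXL1, LUM, MMP14 and SOX9 (adjusted p 0.0552, 0.0702, 0.0688 and 0.0542), and when all probe sets were tested for LOXL1, LUM and MMP14 (0.0532, 0.073 and 0.067). The leave-one-array values of the chain pairs and of the genes outside the collagens were chosen after seeing the data. For COL3A1 minus COL1A1 they ran from 0.25 to 0.44, and for COL1A2 minus COL1A1 from -0.069 to -0.061.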
